A study of Saccharomyces cerevisiae with 8 samples.

Results

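The 10 genes described here are FAR1, HO, FUS1, FUS3, STE4, STE5, STE18, GPA1, RME1 and AGA1 of Saccharomyces cerevisiae, which belong to the pheromone response or are transcribed in haploid cells and repressed in a/alpha diploids. They were chosen by symbol: every probe set that the platform annotation assigns to 1 of these genes alone was taken, which gave 12 probe sets of the 9275 that are not controls, and 10 genes of 5656. FUS3 has 3 probe sets and each of the remaining 9 genes has 1. The genes were picked with earlier results of these data known, so counts of them against all probe sets are descriptions. The study hybridised total RNA of exponentially growing cells to 8 Affymetrix arrays, and its title concerns snoRNA processing signals cut by the yeast RNase III, which RNT1 encodes. At 26 C there were 2 arrays of rnt1d, 1 of rnt1ts and 2 of wild type, and at 37 C there was 1 array each of rnt1d, rnt1ts and wild type. Arrays of one group are labelled as biological replicates, with no word on separate cultures, so p-values measure the spread between these arrays. The labels do not spell out what rnt1d and rnt1ts stand for, and the sources used here give neither the mating type and ploidy of the strains nor the rest of their genotype. Per the labels' growth protocol, cultures were in complete medium that in some cases lacked leucine, the series' design speaks of rich medium, and the medium of each array is not stated.

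In haploid yeast, a pheromone bound to its receptor frees the Gβγ dimer, Ste4 with Ste18, from the inhibitory Gα subunit Gpa1. The dimer recruits the scaffold Ste5, on which a kinase cascade activates the MAP kinase Fus3. Fus3 switches on the transcription factor Ste12 and, through Far1, stops the cell cycle. Far1 also serves to orient growth towards the partner, while Fus1 and the agglutinin anchor Aga1 serve fusion and adhesion. HO encodes the endonuclease that starts mating-type switching and Rme1 keeps haploid cells from entering meiosis. All of these genes are transcribed in haploid cells of either mating type, and the a1/alpha2 repressor shuts many of them off in a/alpha diploids.

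Values are normalised signals in the arbitrary units of the scanner, brought to 1 common distribution over the 8 arrays. One probe set's signal is not comparable with another's, so only the same probe set is compared between arrays. Changes are on the scale of log2(signal + 16), which understates the change of dim transcripts, and a gene was called when limma's adjusted p over all 9275 probe sets was under 0.05. Replicate arrays exist for rnt1d and wild type at 26 C alone, and a lone array was assumed to vary like these. A signal counted as above background when it passed the highest of 19 non-yeast control probe sets on that array, a bound of 3.48 to 10.7. All 10 genes passed it on all 8 arrays with their brightest probe set. FUS1 was the closest to it, with signals of 6.63 to 19.0, and 1 dim FUS3 probe set, at 0.552 to 8.32, was above it on no array.

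The targeted gene was read first, because it checks the labels. The mating-type markers were read with it, because the sources used here do not give the mating type. RNT1 had signals of 1.31 and 2.03 in rnt1d at 26 C and 39.8 in rnt1ts at 26 C, against 181 and 149 in wild type at 26 C. At 37 C it had 71.4 on the array labelled rnt1d and 1.26 on the array labelled rnt1ts, against 269 in wild type. That second array therefore lies with the rnt1d arrays for RNT1, and the 37 C mutant arrays are called by their labels below without any test. The 7 a-specific genes (STE2, STE6, BAR1, MFA1, MFA2, AGA2 and ASG7) summed to 1537 and 1359 in rnt1d, 49.6 in rnt1ts, and 4097 and 3227 in wild type at 26 C. The 4 alpha-specific genes (STE3, SAG1, MF(ALPHA)1 and MF(ALPHA)2) summed to 128 and 137 in rnt1d, 4890 in rnt1ts, and 121 and 94.0 in wild type at 26 C. Wild type and rnt1d at 26 C thus read as mating type a, and rnt1ts at 26 C as alpha. At 37 C the array labelled rnt1d had a high alpha-specific sum (2101, with a-specific genes at 120). The array labelled rnt1ts (128, with a-specific genes at 1787) and wild type (131, with a-specific genes at 2200) were high for a-specific genes. On the array labelled rnt1d, MF(ALPHA)1 gave 1957 of that sum and STE3 60.5, against 33.0 and 19.5 in wild type at 37 C. SAG1 (69.7) and MF(ALPHA)2 (13.4) were close to wild type there (61.1 and 17.6), whereas rnt1ts at 26 C had 508 and 1112. Any comparison with rnt1ts at 26 C is therefore also a comparison between mating types, and strain and mating type cannot be told apart there. The same holds for the array labelled rnt1d at 37 C as far as its a-specific genes, STE3 and MF(ALPHA)1 go.

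**Figure D1:**
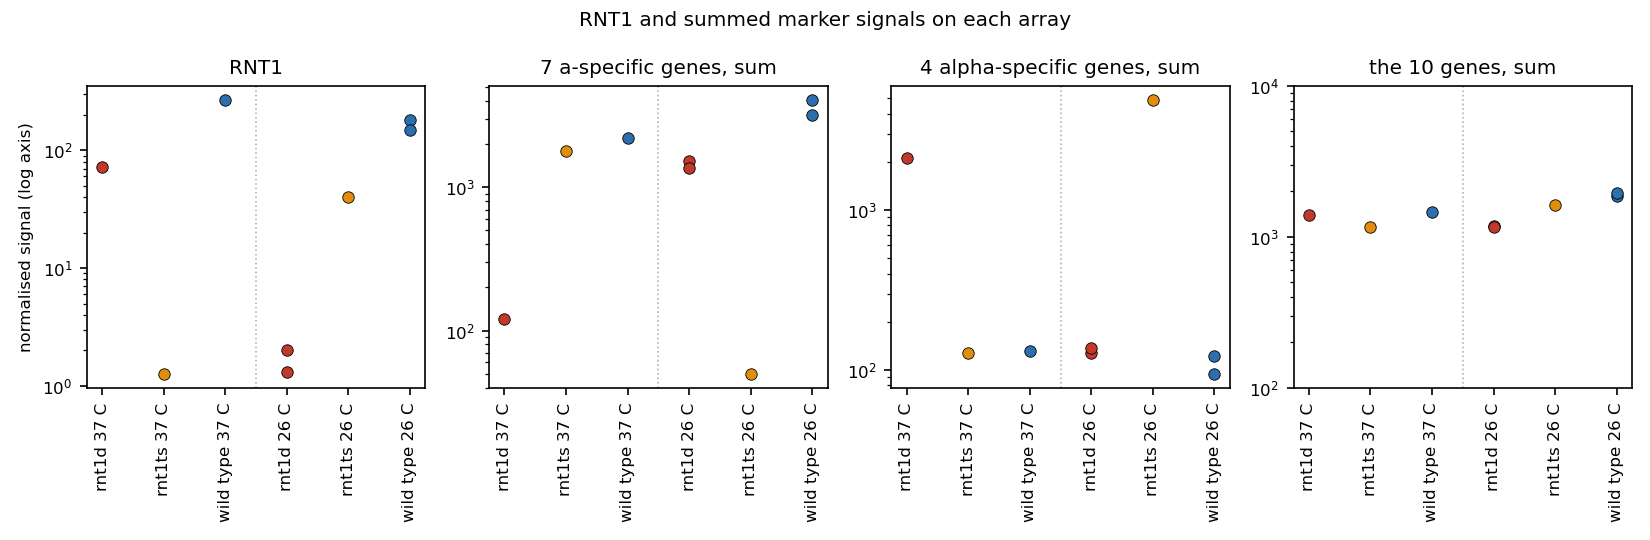
Normalised signals (log axis) of RNT1, and the summed signals of the 7 a-specific genes, the 4 alpha-specific genes and the 10 genes described here, 1 point per array, with 37 C arrays left of the dotted line and 26 C arrays right of it. RNT1 is at 1.26 for the label rnt1ts 37 C, and the alpha-specific sum is high on that of rnt1ts at 26 C (4890) and on the one labelled rnt1d at 37 C (2101).

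The first comparison set rnt1d against wild type at 26 C, the only one with 2 arrays on each side. FAR1, the inhibitor of the G1 cyclin-dependent kinase, and HO, the mating-type switching endonuclease, fell. The other 8 genes did not pass the test, although RME1, GPA1 and STE4 were lower on both rnt1d arrays than on both wild type arrays. Of the 10 genes, 2 were called lower and 0 higher, where 1.95% of all probe sets were called lower and 3.54% higher (5.49% in either direction). The arrays of the groups did not overlap for 6 genes that were lower in rnt1d, against 29.2% of all probe sets, and for 1 that was higher, against 25.1%. At an unadjusted limma p under 0.05, 5 genes were lower, where 11.2% of all probe sets were. The median change of the 10 genes was -0.37, against -0.03 over all probe sets. Since the genes were picked with earlier results of these data known, these counts and medians are descriptions and not a test of the set. Each rnt1d array showed the shift when set alone against the wild type mean, with medians of -0.38 on replicate 1 and -0.30 on replicate 2. Both medians share that wild type mean. Against the same mean, the median was -0.33 on the wild type array at 37 C and -0.14 on rnt1ts at 26 C. In RNA from whole cultures, fewer cells that express a gene and less RNA per cell cannot be told apart.

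**Figure D2:**
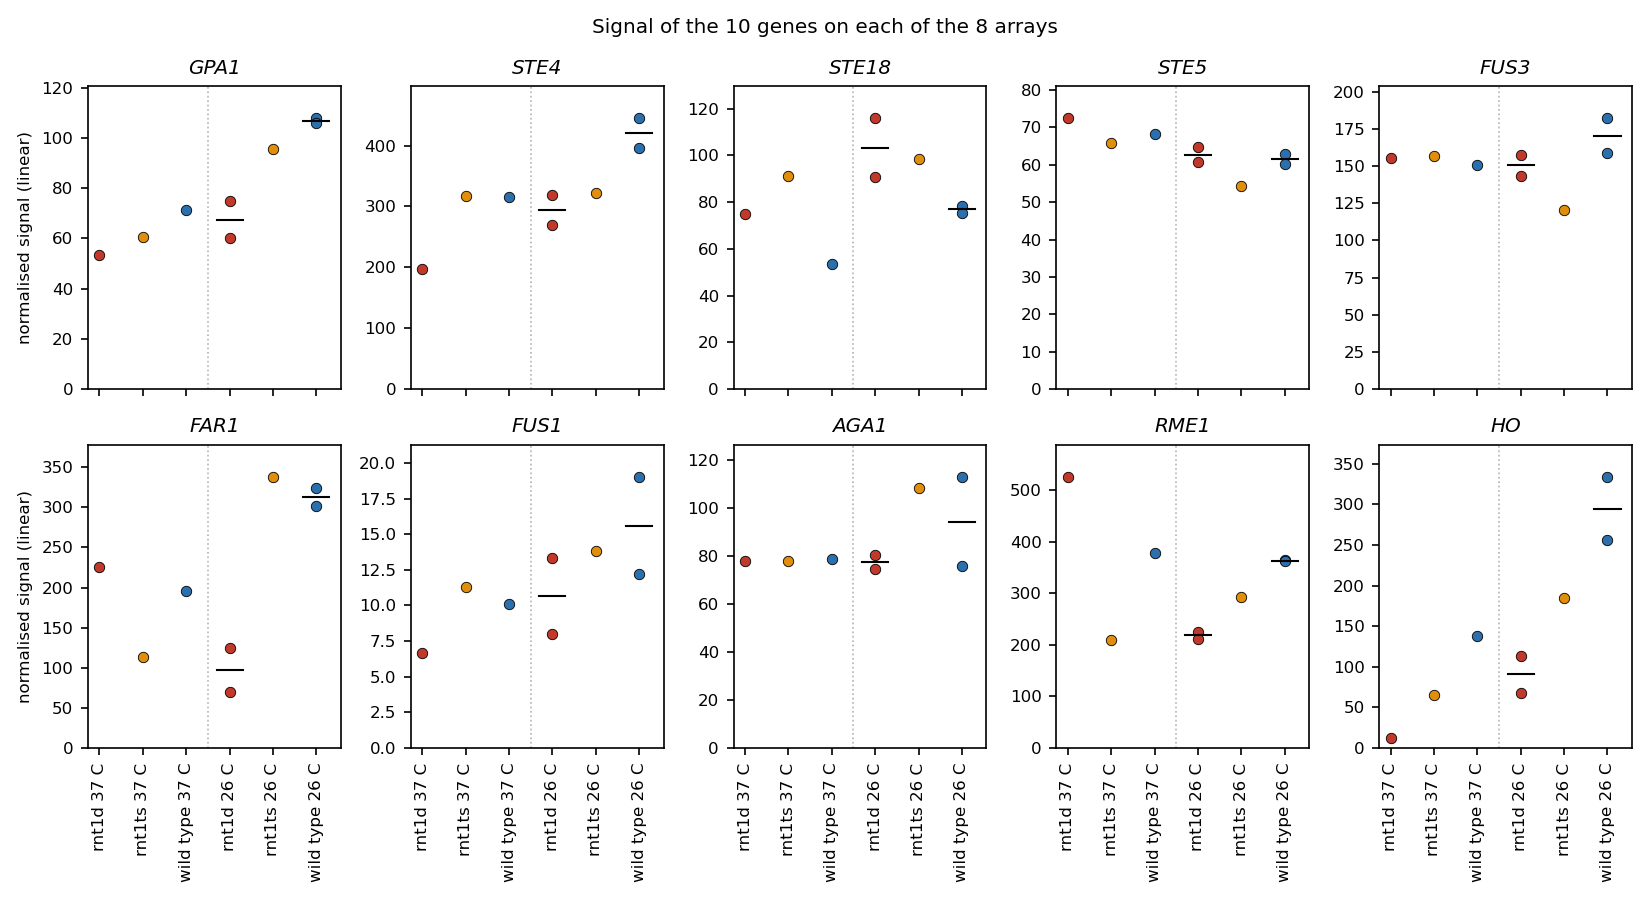
Normalised signal of each of the 10 genes on the 8 arrays, 1 point per array, with the mutants left of wild type at each temperature. The FAR1 points of rnt1d at 26 C, at 124 and 69.0, and the HO points, at 67.9 and 113, lie under those of wild type at 26 C, and the STE5 points stay between 54.4 and 72.4 on all arrays.

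FAR1 (YJL157C) had signals of 124 and 69.0 in rnt1d at 26 C, against 324 and 302 in wild type. Both rnt1d arrays were far below both wild type arrays, and the 2 rnt1d arrays differed from each other more than the wild type arrays did. The means were 96.7 ± 39.2 in rnt1d and 313 ± 15.7 in wild type (SD, n = 2 each), which gave -1.59 as log2 change (SE 0.26, 95% interval -2.23 to -0.94, limma adjusted p = 0.0326). Without rnt1d replicate 1 the change was -1.95 (adjusted p = 0.0267). The call was lost without rnt1d replicate 2 (change -1.23, adjusted p = 0.0638), without replicate 1 of wild type (-1.54, 0.243), without its replicate 2 (-1.64, 0.225) and on the deposited scale (-1.37, 0.545).

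HO (YDL227C) had signals of 67.9 and 113 in rnt1d at 26 C, against 256 and 333 in wild type. The groups did not overlap here either, and every rnt1d signal was below the lowest wild type signal. The means were 90.6 ± 32.1 in rnt1d and 295 ± 54.7 in wild type (SD, n = 2 each), which gave -1.57 as log2 change (SE 0.26, 95% interval -2.22 to -0.91, limma adjusted p = 0.0343). This call depended on all 4 arrays: the adjusted p was 0.0769 without rnt1d replicate 1 (change -1.25), 0.0625 without rnt1d replicate 2 (-1.88), 0.193 without replicate 1 of wild type (-1.75) and 0.248 without its replicate 2 (-1.39). It was also lost on the deposited scale, at 0.592 (-1.36). The change stayed negative in each of these fits.

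RME1 (YGR044C), the zinc-finger repressor of the meiotic inducer IME1, had signals of 225 and 212 in rnt1d at 26 C, against 365 and 362 in wild type. Replicates lay close together in both strains and the groups were well apart. With means of 218 ± 9.57 in rnt1d and 364 ± 1.74 in wild type (SD, n = 2 each), the log2 change was -0.70 (SE 0.14, 95% interval -1.05 to -0.34), just outside the threshold (limma adjusted p = 0.0526). It was inside the threshold with median scaling (change -0.92, adjusted p = 0.0362), with a pseudocount of 1 (-0.73, 0.0432), with probe sets under the 25th percentile left out (0.0413), with those above background on fewer than 2 arrays left out (0.0437) and with the replicate number as a block (0.0187).

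Among the G protein subunits, GPA1 (YHR005C), the Gα subunit that holds the pathway off, had signals of 59.9 and 75.0 in rnt1d at 26 C, against 107.8 and 106.0 in wild type. STE4 (YOR212W), the Gβ subunit, had 320 and 269 in rnt1d, against 396 and 445 in wild type. STE18 (YJR086W), the Gγ subunit, had 91.0 and 116 in rnt1d, against 78.5 and 75.2 in wild type. For GPA1 and STE4 both rnt1d arrays were the lower ones, and for STE18, the partner of Ste4 in the signalling dimer, both were the higher ones. None of the 3 passed the test: the log2 changes were -0.56 for GPA1 (SE 0.18, 95% interval -1.01 to -0.12, limma adjusted p = 0.137), -0.49 for STE4 (0.16, -0.90 to -0.09, 0.149) and 0.35 for STE18 (0.19, -0.10 to 0.81, 0.317). The sign of each was kept under every alternative setting run, with changes of -0.69 to -0.28 for GPA1, -0.77 to -0.38 for STE4 and 0.20 to 0.64 for STE18.

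STE5 (YDR103W), the scaffold of the kinase cascade, had signals of 60.7 and 64.8 in rnt1d at 26 C, against 62.8 and 60.1 in wild type, and the groups overlapped. Its log2 change was 0.02 with a 95% interval of -0.39 to 0.44 (limma adjusted p = 0.956). FUS3 (YBL016W), the MAP kinase of the pathway, had 144 and 158 in rnt1d, against 159 and 182 in wild type on its brightest probe set. These groups were adjacent and just did not overlap. The change was -0.16 with a 95% interval of -0.57 to 0.24 (limma adjusted p = 0.606). A second FUS3 probe set read 122 and 66.8 in rnt1d, against 127 and 87.0 in wild type, with overlap and a change of -0.18 (limma adjusted p = 0.758).

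FUS1 (YCL027W), a membrane protein needed for fusion of mating cells and a classical target of Ste12, had signals of 7.99 and 13.3 in rnt1d at 26 C, against 12.2 and 19.0 in wild type. The groups overlapped near the background bound, and the log2 change was -0.24 (95% interval -0.69 to 0.20, limma adjusted p = 0.474). AGA1 (YNR044W), which anchors the a-agglutinin to the cell wall, had 74.5 and 80.6 in rnt1d, against 113 and 75.9 in wild type. Wild type replicate 1 alone stood above the rest. The change was -0.22 (95% interval -0.76 to 0.32, limma adjusted p = 0.601), and without wild type replicate 1 it was 0.02.

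The second comparison, rnt1ts against wild type at 26 C, set 1 array against 2 and 1 mating type against the other. None of the 10 genes was called (0 of 10, against 0.787% of all probe sets, 0.205% lower and 0.582% higher), and 0 of the 10 had an unadjusted limma p under 0.05, where 8.96% of all probe sets did. The rnt1ts signal was lower than both wild type signals for 6 genes, where 35.8% of all probe sets were, and higher for 2, where 35.5% were. The median change of the 10 genes was -0.14, against -0.01 over all probe sets. FAR1 had a signal of 337 in rnt1ts, against 324 and 302 in wild type, so it was above both wild type arrays, with a log2 change of 0.11 (95% interval -0.68 to 0.90, limma adjusted p = 0.985). HO had 184 in rnt1ts, against 256 and 333 in wild type. It was below both, with a change of -0.62 (95% interval -1.42 to 0.17, limma adjusted p = 0.724). FUS3 had 121 in rnt1ts, against 159 and 182 in wild type, the lowest of the 8 arrays, with a change of -0.45 (95% interval -0.94 to 0.05, limma adjusted p = 0.627). The remaining changes ran from -0.36 for STE4 to 0.30 for STE18, with GPA1 at -0.14 (95.5 in rnt1ts) and RME1 at -0.29 (294 in rnt1ts).

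Set directly against each other at 26 C, the rnt1d and rnt1ts strains gave the test of whether their changes differ, since wild type drops out of the contrast. None of the 10 genes was called (1.57% of all probe sets were), and 2 were lower in rnt1d at an unadjusted limma p under 0.05, where 7.64% of all probe sets were. The rnt1d arrays were both below the rnt1ts array for 7 genes, where 38.3% of all probe sets were, and both above it for 2, where 35.4% were. FAR1 had 124 and 69.0 in rnt1d, against 337 in rnt1ts, a log2 change of -1.69 (SE 0.32, 95% interval -2.48 to -0.90, limma adjusted p = 0.0772). It crossed the threshold when dim probe sets were left out before the adjustment (adjusted p = 0.0267 and 0.0272 with the 2 filters) and with the replicate number as a block (0.00700). HO had 67.9 and 113 in rnt1d, against 184 in rnt1ts, a change of -0.94 (SE 0.32, 95% interval -1.74 to -0.15, limma adjusted p = 0.237), and it was inside the threshold with the block (0.0365). For RME1 the change was -0.40 (95% interval -0.84 to 0.03, limma adjusted p = 0.341) and for GPA1 it was -0.42 (-0.97 to 0.12, 0.411).

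**Figure D3:**
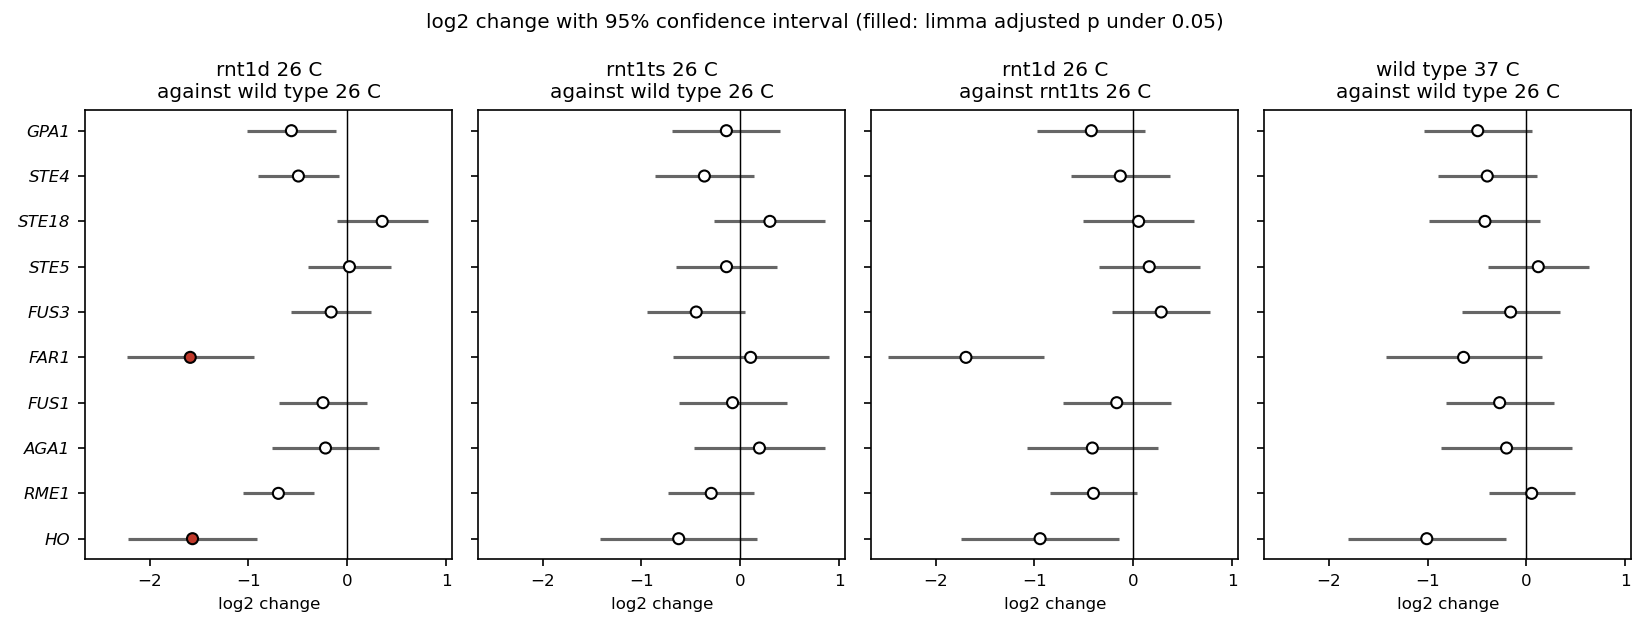
Change of the 10 genes on the scale of log2(signal + 16) in the 4 tested comparisons, with 95% confidence intervals from limma, and filled points where the adjusted p was under 0.05. FAR1 (-1.59) and HO (-1.57) are filled in rnt1d against wild type at 26 C, and no point is filled in the other 3 comparisons.

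The effect of temperature was read in wild type alone, with 1 array at 37 C against 2 at 26 C. No probe set passed the limma test (0% of 9275 called), 9.64% had an unadjusted p under 0.05, and other settings called between 0 and 14 probe sets. The 37 C signal was below both 26 C signals for 7 of the 10 genes, where 39.1% of all probe sets were, and above both for 2, where 35.2% were. Their median change was -0.33, against -0.02 over all probe sets. HO had 137 at 37 C, against 256 and 333 at 26 C, a log2 change of -1.01 (95% interval -1.81 to -0.21, limma adjusted p = 0.478). HO was the 1 gene of the 10 with an unadjusted limma p under 0.05, where 4.86% of all probe sets were lower at that level. FAR1 had 196 at 37 C, against 324 and 302 at 26 C, and a change of -0.64 (95% interval -1.43 to 0.16, limma adjusted p = 0.590). All 3 G protein subunits were lower on the 37 C array: GPA1 had 71.4 at 37 C, against 107.8 and 106.0 at 26 C, STE4 had 315, against 396 and 445, and STE18 had 53.5, against 78.5 and 75.2. Their changes were -0.49, -0.40 and -0.42 (limma adjusted p = 0.562, 0.595 and 0.605). STE5 had 68.3 at 37 C, against 62.8 and 60.1 at 26 C, and RME1 had 378, against 365 and 362.

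At 37 C each strain has 1 array, so the mutant arrays are given as values with no test and no replicate check. HO had signals of 11.8 on the array labelled rnt1d and 64.8 on the one labelled rnt1ts, against 137 in wild type. The signal of 11.8, log2 difference -2.46, was the lowest HO signal of the 8 arrays, above its own array's background bound of 3.48. That array had low a-specific signals and a high MF(ALPHA)1 signal. HO was the only one of the 10 genes at least 2-fold lower on the log2(signal + 16) scale on the array labelled rnt1d (3.3% of all probe sets were), and none was at least 2-fold higher (2.58% were). On the array labelled rnt1ts, 0 of the 10 were at least 2-fold lower on that scale (3.32% of all probe sets were) and 0 at least 2-fold higher (3.59% were), with HO the closest, at a log2 difference of -0.93. FAR1 had 226 on the array labelled rnt1d and 113 on the one labelled rnt1ts, against 196 in wild type. The lower of these, log2 difference -0.71, stood on the array whose RNT1 signal was 1.26. RME1 had 525 on the array labelled rnt1d and 209 on the one labelled rnt1ts, against 378 in wild type, the highest and the lowest of all 8 arrays and log2 differences of 0.46 and -0.81. Over all probe sets, the array labelled rnt1ts at 37 C correlated at 0.992 and 0.982 with the 2 rnt1d arrays at 26 C and at 0.956 with rnt1ts at 26 C. The array labelled rnt1d at 37 C correlated at 0.953 and 0.942 with the rnt1d arrays and at 0.962 with rnt1ts at 26 C. Whether the labels of these 2 arrays were exchanged was not tested. The 10 genes summed to 1402 on the array labelled rnt1d and 1167 on the one labelled rnt1ts, against 1459 in wild type at 37 C, and to 1175 and 1170 in rnt1d, 1630 in rnt1ts, and 1874 and 1961 in wild type at 26 C.

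The G protein genes did not share 1 pattern on the mutant arrays at 37 C. GPA1 had 53.5 on the array labelled rnt1d and 60.7 on the one labelled rnt1ts, against 71.4 in wild type. STE4 had 198 and 317 on those mutant arrays, in the same order, against 315 in wild type. STE18 had 74.8 and 91.1, against 53.5 in wild type, so it was above wild type on both mutant arrays, as it was on all 3 mutant arrays at 26 C. FUS3 had 155 and 157 on the mutant arrays, against 151 in wild type (log2 differences 0.039 and 0.051), and AGA1 had 78.0 and 77.9, against 78.8 (-0.011 and -0.014), so both were close to wild type. FUS1 was dim, with 6.63 and 11.3, against 10.1 in wild type, and STE5 had 72.4 and 65.8, against 68.3 in wild type.

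Over the 8 arrays the 10 genes did not vary alike. The ratio of the highest to the lowest signal was 28.1 for HO and 4.89 for FAR1, and 1.33 for STE5, the steadiest. HO ran with GPA1 (Pearson r = 0.93) and with STE4 (0.90) on the log2 scale, while FAR1 ran less with HO (0.40) than with RME1 (0.70). HO, GPA1 and STE4 each had their lowest signal on the array labelled rnt1d at 37 C (11.8, 53.5 and 198). The HO ratio rests on that array, since the next lowest HO signal was 64.8. Correlations without that array were not computed. These are descriptions over 8 arrays that include replicates and share strain, mating type and temperature. Among 3962 to 3964 probe sets per gene with a mean signal at or above the median, those most like FAR1 were for SVL3 (r = 0.99), MEF2 (0.98) and TKL1 (0.98). Those most like HO were for CDC21, AIP1 and VPS54 (0.96 each), and those most like GPA1 were for RAS2 (0.99), AIP1 (0.97) and RPB3 (0.97). For RME1 they were OPT2 (0.97), SNR5 (0.97) and MET8 (0.96), and for STE4 they were MRP7 (0.98), MSS116 (0.97) and DSN1 (0.97). STE5 was closest to RRP46 (0.98), EBS1 (0.98) and ROX3 (0.97), and STE18 to FET5 (0.95), ARA2 (0.95) and DLD2 (0.95). FUS3, FUS1 and AGA1 had likenesses of at most 0.95, with SIF2 (0.92), DDE1 (0.95) and ERV1 (0.93) in first place.

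The wider pathway was read in rnt1d against wild type at 26 C from lists of genes with known roles. All gene lists used from here on were also chosen with earlier results known, so their counts and medians are descriptions. Of 20 other genes of the pheromone pathway, 2 fell and 0 rose, where 1.95% of all probe sets were called lower and 3.54% higher, with a median change of -0.09 against -0.03 over all probe sets. At an unadjusted limma p under 0.05, 3 were lower and 4 higher, where 11.2% of all probe sets were lower and 12.1% higher. The 4 higher ones were AKR1, PTP3, BNI1 and MPT5, with changes of 0.55, 0.60, 0.71 and 0.60 that did not pass (limma adjusted p = 0.122, 0.104, 0.0658 and 0.0717). SST2, the GTPase-activating protein that switches Gpa1 back off, had 46.7 and 39.4 in rnt1d, against 116 and 97.2 in wild type, a log2 change of -1.05 (SE 0.19, limma adjusted p = 0.0379). TEC1, the partner of Ste12 in filamentous growth, had 188 and 203 in rnt1d, against 371 and 404 in wild type, a change of -0.93 (SE 0.15, limma adjusted p = 0.0317). For both genes the rnt1d arrays lay below the wild type arrays without overlap, but each call was lost without any 1 of the 4 arrays (adjusted p of 0.0737 to 0.269) and on the deposited scale. STE12, the transcription factor at the end of the cascade, had 29.1 and 26.9 in rnt1d, against 60.2 and 55.0 in wild type, and a change of -0.74 that did not pass (SE 0.17, limma adjusted p = 0.0693). SST2 was also the 1 of 5 other haploid-specific genes called lower, with 0 higher and a median of -0.20.

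Of 22 genes induced by pheromone or used in mating, 4 rose and 0 fell in rnt1d, where 3.54% of all probe sets were called higher and 1.95% lower, with a median change of 0.20. At an unadjusted limma p under 0.05, 7 were higher and 1 lower, where 12.1% and 11.2% of all probe sets were. The lower one was SCW11 (change -0.95, limma adjusted p = 0.0624). The groups did not overlap for 12 higher and 8 lower genes, against 25.1% and 29.2% of all probe sets. PRM5, a pheromone-regulated membrane protein whose gene also responds to cell wall integrity signalling, had 465 and 584 in rnt1d, against 114 and 163 in wild type (log2 change 1.82, SE 0.22, limma adjusted p = 0.0141). GIC2, an effector of the polarity GTPase Cdc42, had 646 and 846 in rnt1d, against 213 and 285 in wild type (change 1.52, SE 0.21, limma adjusted p = 0.0217). PRM10, a pheromone-regulated membrane protein, had 331 and 313 in rnt1d, against 95.5 and 101 in wild type (change 1.56, SE 0.15, limma adjusted p = 0.00742). No rnt1d array overlapped with wild type for these 3. SCW10, a cell wall glucanase, had a change of 1.32 (limma adjusted p = 0.0138) on its brighter probe set and 0.51 (0.164) on its other one. PRM10 was the 1 gene of this list called in rnt1ts as well, with 296 there and a change of 1.45 (limma adjusted p = 0.0395), a call lost without any 1 replicate array, on the deposited scale and with a pseudocount of 64 (adjusted p of 0.0546 to 0.557). In the direct contrast of rnt1d with rnt1ts, 0 of the 22 were called, where 1.57% of all probe sets were. Each of these 4 calls in rnt1d was lost without either wild type array (adjusted p of 0.112 to 0.204) and on the deposited scale, and those of PRM5 and GIC2 also without rnt1d replicate 2 (0.0863 and 0.0962), with no change of sign. With median scaling the adjusted p was 0.0545 for GIC2 and 0.0514 for SCW10.

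Some a-specific genes were lower in rnt1d at 26 C, as FAR1 and HO were. Of 7, 3 fell and 0 rose, where 1.95% of all probe sets were called lower and 3.54% higher: MFA1 and MFA2, which encode a-factor, and BAR1, the protease that degrades alpha-factor. Their log2 changes were -1.65, -1.28 and -1.57 (limma adjusted p = 0.0413, 0.0402 and 0.0108). All 3 calls were lost without either wild type array (adjusted p of 0.150 to 0.280) and on the deposited scale, that of MFA1 without either rnt1d array (0.107 and 0.119) and that of MFA2 without rnt1d replicate 2 (0.114). STE2, the alpha-factor receptor, had 175 and 140 in rnt1d, against 293 and 306 in wild type, a change of -0.87 that did not pass (limma adjusted p = 0.0526). MFA1 had a change of -1.87 (limma adjusted p = 0.0197) on its other probe set. At 37 C, wild type had 6 of the 7 below both of its 26 C signals, where 39.1% of all probe sets were. For 1 it was above both, where 35.2% were. Changes there were -1.44 for BAR1, -0.94 for STE2 and -0.60 for both MFA1 and MFA2. In rnt1d at 26 C, none of the 4 alpha-specific genes passed. SAG1, which encodes alpha-agglutinin, had 86.4 and 93.2 in rnt1d, against 54.5 and 29.0 in wild type, so it was higher on both rnt1d arrays (change 0.91, limma adjusted p = 0.101). The part of the a-specific decrease in the values of FAR1 and HO was not tested. In rnt1ts at 26 C, the median change against wild type was -3.97 for the 7 a-specific genes and 4.13 for the 4 alpha-specific genes. FAR1 had a change of 0.11 and HO 1 of -0.62 in that comparison.

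**Figure D4:**
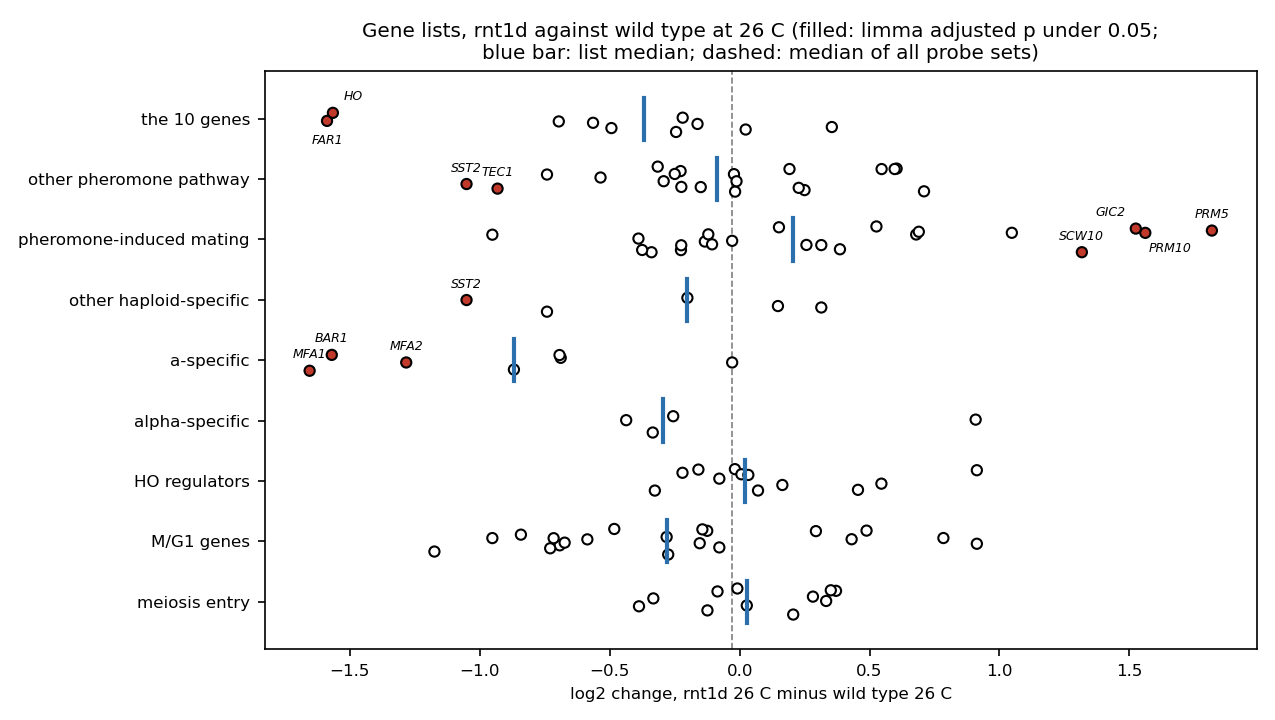
Change of each gene on the scale of log2(signal + 16) in rnt1d against wild type at 26 C, grouped in the 10 genes and 8 further lists, with filled points where the limma adjusted p was under 0.05, blue bars at list medians and a dashed line at the median of all probe sets (-0.03). FAR1, HO, SST2, TEC1 and 3 a-specific genes are filled on the lower side, and PRM5, PRM10, GIC2 and SCW10 on the higher side.

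Genes that control HO, and those of the meiotic program that Rme1 restrains, were read in the same comparison. Of 12 regulators of HO, none was called, with a median change of 0.02, and at an unadjusted limma p under 0.05 the count was 3 higher and 0 lower, where 12.1% of all probe sets were higher and 11.2% lower. The higher ones were SWI4, SNF2 and SWI1, the last only on its brightest probe set (change 0.55, limma adjusted p = 0.202). On its next brightest probe set SWI1 had a change of 0.04 (limma adjusted p = 0.934). SWI4, the DNA-binding subunit of the factor that activates HO in late G1, had 50.2 and 64.3 in rnt1d, against 22.1 and 23.4 in wild type, a log2 change of 0.91 (limma adjusted p = 0.0514). SWI5, which opens the HO promoter in mother cells, had a change of -0.02 (limma adjusted p = 0.966), and ASH1, which represses HO in daughter cells, had -0.08 (0.791). Of 20 genes with a peak at the transition from mitosis to G1, 0 were called, 9 were lower and 2 higher at an unadjusted limma p under 0.05, and the median was -0.28. Of 11 genes of entry into meiosis, the process that Rme1 holds off, 0 were called, with a median of 0.03, and 2 were higher and 0 lower at an unadjusted limma p under 0.05. Many of the 11 were dim: 5 and 7 were above background on the wild type arrays at 26 C, and 8 and 9 on the rnt1d arrays. Both higher genes were below background on each of these wild type arrays. Changes of such dim genes are understated on this scale, so the small median does not show an unchanged program. IME1, the direct target of Rme1, had 11.8 and 20.6 in rnt1d, against 21.5 and 30.5 in wild type, and a change of -0.39 (limma adjusted p = 0.341). Of 6 mating-type locus genes, only HMRA1, which shares its sequence with the a1 gene of an a-type mating-type locus, could be read here from probe sets that name 1 gene. On its brightest probe set it had 175 and 263 in rnt1d, against 114 and 123 in wild type (change 0.78, limma adjusted p = 0.115). On its dimmer probe sets the groups overlapped, with changes of 0.21 and 0.15 (limma adjusted p = 0.671 and 0.634).

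**Figure D5:**
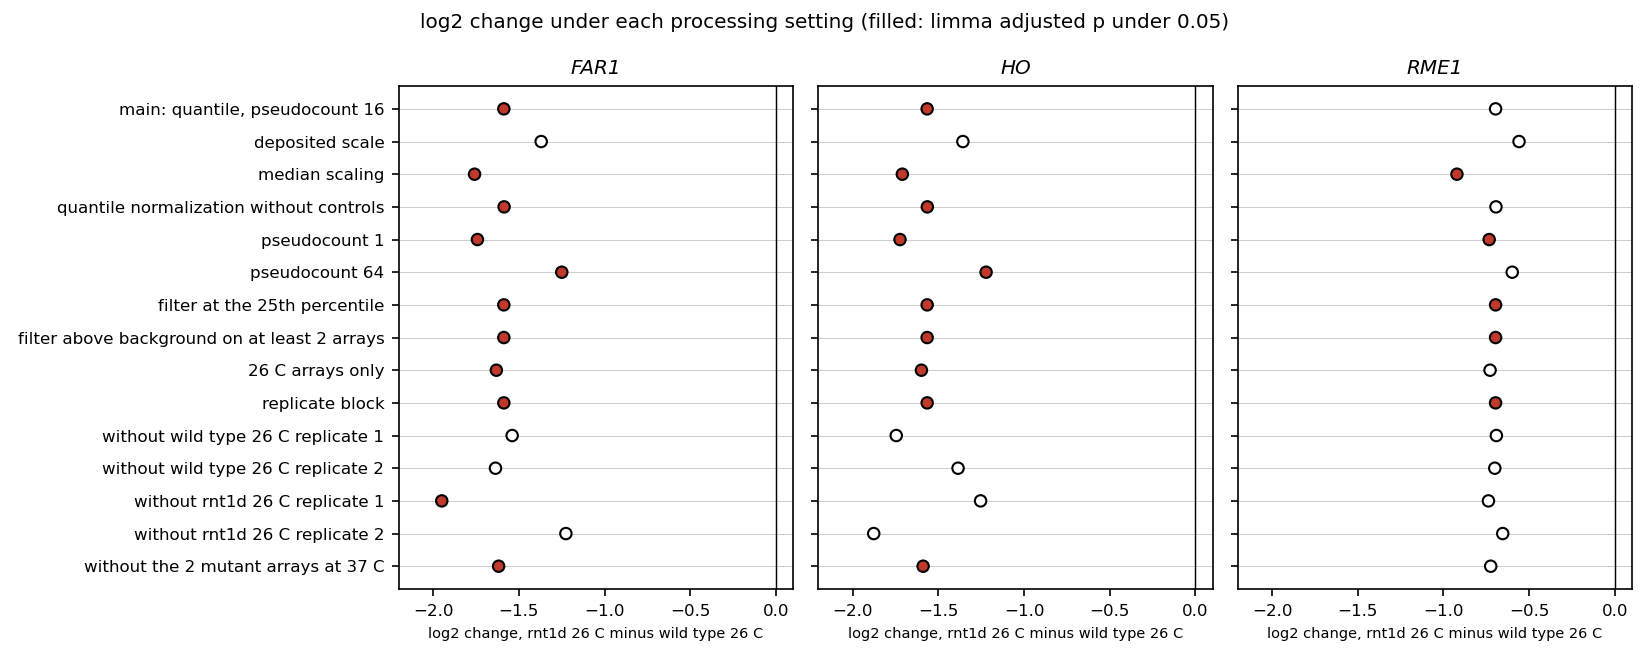
Log2 change of FAR1, HO and RME1 in rnt1d against wild type at 26 C under each processing setting. The scale is log2(signal + 16), except in the settings with another pseudocount. Points are filled where the limma adjusted p was under 0.05. FAR1 stays between -1.95 and -1.23 and HO between -1.88 and -1.22 over the settings, and neither is filled on the deposited scale.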

How the data were processed

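Total RNA of 8 samples was hybridised to 8 Affymetrix arrays. Each probe set has 1 deposited intensity on a linear scale, from MAS5, per the submitters' processing notes, with version and scaling target not given in the sources used here. The scale differed between arrays: means trimmed by 2% at each end lay between 103 and 195, and medians between 31.0 and 69.5. They were therefore quantile normalised (9335 probe sets, 60 of them controls) and tested as log2(signal + 16) with limma 3.58.1 in R 4.3.3. The fit had 6 group means over 8 arrays and 2 residual degrees of freedom, two-sided tests, variances moderated along the mean signal and Benjamini-Hochberg adjustment over 9275 probe sets. Groups came from the labels. Between 78.8% and 90.5% of tested probe sets were above background on an array, and the number of arrays limits the precision.

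A gene was represented by its probe set with the highest mean, and names came from the platform annotation and a gene table of assembly R64. Genes named are all 10 members with all their probe sets, RNT1, up to 4 called genes of each list per comparison by size of change, receptors, pheromones and mating-type genes, and the 3 probe sets most like a member. The genes STE12, SAG1, AKR1, PTP3, BNI1, MPT5, SCW11, SWI4, SNF2, SWI1, SWI5, ASH1 and IME1 were named after their values had been seen. FUS1, FUS3 and AGA1 have only the first of their 3 likenesses named. The members and the lists were chosen with earlier results of these data known. The scripts were tested on simulated data. Alternatives were the deposited scale, median scaling, normalization without controls, pseudocounts of 1 and 64, 2 filters on dim probe sets, 26 C arrays only, a replicate block, a second probe set, each replicate left out, and, added after seeing the data, both mutant arrays at 37 C left out.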

Additional observations from a re-analysis of the deposited data

Results flagged for a closer look

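For 4 genes a strain's difference from wild type had one direction on every array at 26 C and the other on the single arrays at 37 C. For FAR1 the log2 difference at 37 C was 0.19 on the array labelled rnt1d (lower in rnt1d at 26 C) and -0.71 on the one labelled rnt1ts (higher in rnt1ts at 26 C). RME1 was at 0.46 on the array labelled rnt1d, against lower values in rnt1d at 26 C. FUS3 was at 0.039 on the array labelled rnt1d and 0.051 on the one labelled rnt1ts, and STE4 at 0.0078 on the array labelled rnt1ts, all lower at 26 C. None of these differences between temperatures was tested. The RNT1 signals of both mutant arrays at 37 C go against those under the same labels at 26 C, and whether the labels were exchanged was not tested. If they were, FAR1 (-0.71 for rnt1d and 0.19 for rnt1ts) and RME1 (-0.81 for rnt1d) would have the direction seen at 26 C, while FUS3 would still be opposite in both strains, STE4 would be opposite in rnt1d in place of rnt1ts, and RME1 (0.46) and STE5 (0.070) would be opposite in rnt1ts.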

How the results depend on the processing

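The directions of FAR1 and HO in rnt1d against wild type at 26 C were kept in all 14 alternatives, with FAR1 called in 10 and HO in 9. Only 2 residual degrees of freedom stand behind each p of the main fit, with 3.76 prior ones from limma's moderation. The fits without 1 replicate and with the replicate block have fewer residual ones. The deposited scale moves the median of all probe sets by 0.12 in rnt1d against wild type, 0.30 in rnt1ts against wild type, -0.11 in rnt1d against rnt1ts and 0.24 in wild type at 37 C against 26 C. For rnt1d against wild type, 509 probe sets were called (328 higher, 181 lower), against 100 on the deposited scale, 586 with median scaling (241 higher, 345 lower), 900 with the 25th percentile filter, 860 with the background filter and 33 to 241 without 1 replicate. Of the 10 genes 2 were called, against 0 on the deposited scale and 0 to 1 without 1 replicate. For rnt1ts against wild type, 73 were called, against 113 and 111 with the filters and 0 to 51 without 1 replicate. For rnt1d against rnt1ts, 146 were called (75 higher, 71 lower), against 56 on the deposited scale (15 higher, 41 lower), 376 and 331 with the filters and 10 to 45 without 1 replicate, and with each filter 1 of the 10 genes was called. For wild type at 37 C against 26 C, 0 were called, against 14 on the deposited scale, 2 with a pseudocount of 64 and 3 with each filter. The cause of these shifts was not tested.

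Samples that share a replicate number deviated together with a correlation of 0.31 over probe sets, and the labels do not say that the number marks a shared day or batch. In the block, lone arrays were coded midway between the replicate numbers. With the replicate number as a block, 1425 probe sets were called for rnt1d against wild type, 195 for rnt1ts against wild type, 644 for rnt1d against rnt1ts (with 2 of the 10 genes) and 11 for the temperature comparison.

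Changes of uncalled genes that reversed are all small. On the deposited scale these were, for rnt1d against wild type, FUS3 at 0.10 and AGA1 at 0.074. For rnt1ts against wild type they were FUS1 at 0.14, STE4 at 0.056, STE5 at 0.26, GPA1 at 0.28 and RME1 at 0.16. For rnt1d against rnt1ts it was STE18 at -0.10, and for temperature FUS1 at 0.0020, FUS3 at 0.18 and AGA1 at 0.17. Without 1 replicate, AGA1 lay between -0.46 and 0.025 and STE5 between -0.014 and 0.060 in rnt1d against wild type. In rnt1ts against wild type, FUS1 lay between -0.23 and 0.077 and AGA1 between -0.049 and 0.44. STE18 lay between -0.097 and 0.21 in rnt1d against rnt1ts, and AGA1 between -0.44 and 0.044 for temperature. With median scaling RME1 was at -0.17 for temperature, and the second FUS3 probe set was at 0.00013.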
